A study of Mus musculus with 4 samples.

Results

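The genes described here are the numbered mouse zinc finger genes Zfp800 to Zfp999, taken as every row of the expression table whose symbol is Zfp followed by a number in that range. The rule found 60 of the 22138 genes listed. A mean of at least 0.5 RPKM (reads per kilobase of transcript, scaled to the size of the library) over the libraries was reached by 57 of them, and the other 3 were counted as silent. RNA was sequenced from TT2, a female mouse embryonic stem (ES) cell line (strain C57BL/6xCBA) kept feeder-free in medium with serum and the cytokine LIF. Each culture received small interfering RNA (siRNA) by transfection, first at 100 nM and again 24 h later at 50 nM, and RNA was taken about 72 h after the second transfection. The groups were control siRNA (n = 2) and Hnrnpk siRNA (n = 2), with no other allele or agent given. The study's title links hnRNP K, which binds nucleic acids, to silencing by SETDB1, so the comparison asked which transcripts differed after Hnrnpk was depleted.

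Most genes of this kind encode proteins with a row of C2H2 zinc fingers, short zinc-binding folds that read DNA, behind an amino-terminal KRAB domain. The KRAB domain binds TRIM28, a scaffold that brings in SETDB1, the enzyme that methylates lysine 9 of histone H3. In ES cells this pathway keeps many endogenous retroviruses silent, each zinc finger protein choosing its own DNA targets. The genes lie in clusters that grew by tandem duplication, so neighbours are often alike in sequence.

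The coding sequences bore out the class. In the conceptual translation of GENCODE M21 transcripts, 49 of the 59 members with a coding transcript held the KRAB A box signature (at least 10 of 13 conserved positions matched), or 83.1%. Among the 591 genes of the expression table with a translated coding transcript and 3 or more fingers, the share was 44.5%. Those 591 include members, while the 59 members were counted whatever their number of fingers. Members with the signature held a median of 11 fingers, from 0 in the short annotated reading frame of Zfp935 to 22 in Zfp808. The 10 coding members without the signature were Zfp800, Zfp821, Zfp827, Zfp828, Zfp830, Zfp831, Zfp839, Zfp865, Zfp956 and Zfp957. Zfp828 is the gene that GENCODE M21 calls Champ1, which acts in chromosome alignment at mitosis, and Zfp939 is annotated as a transcribed pseudogene.

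The depth of the 4 libraries is known only roughly. Steps between low RPKM values gave relative depths of 1, 0.985, 0.895 and 0.884 (the 2 controls first), but only 28.0% to 30.7% of the low values fell on whole steps, so the number of reads behind a value is not given here. Hnrnpk stood at 236 and 226 RPKM after control siRNA and at 68.0 and 70.5 RPKM after Hnrnpk siRNA. Replicates correlated at Pearson's r of 0.997 and 0.999 across 12486 genes (genes are no independent replicates), against 0.955 to 0.960 between groups. Whether replicates were separate cultures is not stated beyond the design text calling them biological, so p-values measure the spread between these samples. Markers of ES cells were present throughout, with summed levels of 3788 to 3908 RPKM after control siRNA and 4554 to 4880 RPKM after Hnrnpk siRNA over 8 genes. The sum is dominated by Dppa5a, which went from 1320 and 1276 RPKM to 2164 and 2451 RPKM. Of the 8, 2 were called higher (Nanog and Dppa5a) and 3 lower (Sox2, Utf1 and Tdgf1), with a median log2 change of -0.063.

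Markers of other cell states moved with the groups. The summed RPKM of 6 two-cell-like markers was 0.710 and 0.692 in controls against 35.8 and 41.7 after Hnrnpk siRNA, and 6 of the 6 were called higher. Each lay under 0.5 RPKM in both controls and passed the filter only through the Hnrnpk siRNA libraries. With such control values, a tested marker of this list could hardly be called other than higher. For primitive endoderm the sums were 8.44 and 8.04 against 32.6 and 33.8, with 4 of 5 tested entries called higher, Sox17 and Foxa2 under a mean of 0.5 RPKM and a second entry of Dab2 listed at 0. For trophectoderm they were 28.9 and 34.9 against 63.1 and 68.1, with 4 of 4 called higher and Cdx2 and Elf5 under that mean. For fibroblasts they were 9.46 and 8.01 against 4.08 and 4.32, with 2 of 2 called lower and Dcn, Lum, Col3a1 and Col1a2 under it. The part of these states in the results that follow was not tested. In bulk RNA, fewer cells of a type and less RNA per cell cannot be told apart.

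Levels of the zinc finger genes were low to moderate. The median over the 57 tested members was 3.71 and 3.93 RPKM in controls against 4.11 and 4.16 RPKM after Hnrnpk siRNA. A mean of 10 RPKM or more was reached by 12 members, 42 lay between 1 and 10 RPKM, and 3 lay under 1 RPKM. Zfp828 was the highest at a mean of 58.5 RPKM, followed by Zfp961 at 40.8 and Zfp958 at 24.0. The lowest tested members were Zfp879 at 0.565, Zfp964 at 0.625 and Zfp950 at 0.846 RPKM. Just outside the limit lay Zfp872 at 0.410, and far below it Zfp831 at 0.0373 and Zfp957 at 0.0020 RPKM. Summed over all 60 members, RPKM was 386 and 420 after control siRNA and 452 and 455 after Hnrnpk siRNA. Without Zfp961 the sums were 366 and 395 against 393 and 396, so the groups then overlapped.

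Of the 57 tested members, 22 were called higher and 13 lower after Hnrnpk siRNA at an adjusted p under 0.05 (limma on log2(RPKM + 0.5), Benjamini-Hochberg over all genes tested), or 61.4%. Over all 12486 genes tested 67.2% were called, 32.2% higher and 35.0% lower, against 38.6% and 22.8% of the members. The share of members called was thus no higher than the background, and changes were mostly small. The median log2 change of the members was 0.074, with the middle range from -0.18 to 0.38, beside -0.015 over all genes. The median size of change regardless of sign was 0.25 in the members and 0.32 over all genes. Only Zfp961 passed a log2 change of 1 in size, 1.75% of the members against 8.51% of all genes. The groups did not overlap in 46 members (27 above and 19 below), or 80.7% against 84.7% of all genes.

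**Figure D1:**
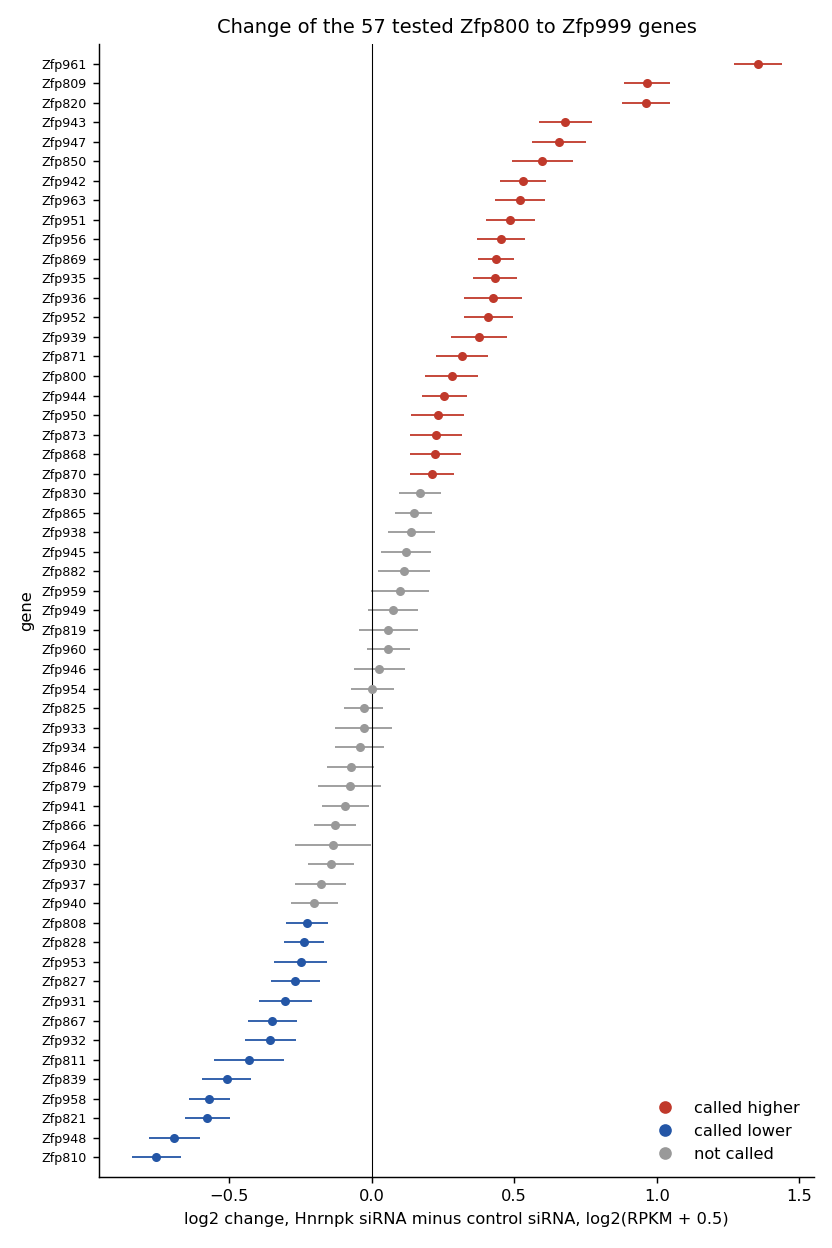
Each point is the log2 change of 1 of the 57 tested genes (x axis, log2(RPKM + 0.5), Hnrnpk siRNA minus control siRNA) with its limma standard error as the bar, ordered by size, n = 2 libraries a group. The 22 genes called higher run from 0.21 to 1.36 and the 13 called lower from -0.76 to -0.23.

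The balance between rises and falls changed when base composition was taken into account. Transcripts of the members are poor in G and C: their median GC content was 41.3% (range 34.4% to 57.1%) against 50.7% over the genes tested, and 53 of 57 lay below that median. When each library's trend on GC content was removed, 16 members were called higher and 19 lower, and their median log2 change was -0.059. Over all genes that step changed little, with 3952 called higher and 4314 lower. By its design it nearly keeps each library's mean over all genes and shifts genes of like GC content together. Across the 57 members, which share libraries and are not independent, log2 change and GC content had a Pearson's r of -0.17, and across 12274 genes -0.16. Of the 35 calls, 19 held in direction and significance under every 1 of the 13 alternatives run, namely 14 rises (Zfp809, Zfp820, Zfp850, Zfp869, Zfp935, Zfp936, Zfp942, Zfp943, Zfp947, Zfp951, Zfp952, Zfp956, Zfp961 and Zfp963) and 5 falls (Zfp810, Zfp821, Zfp839, Zfp948 and Zfp958). Without Hnrnpk siRNA replicate 1 the median log2 change of the members was 0.109, beside -0.003 over all genes. Without Hnrnpk siRNA replicate 2 it was 0.063, beside -0.024. Fewer genes were called in both cases, and the share of members called fell further below that of all genes.

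**Figure D2:**
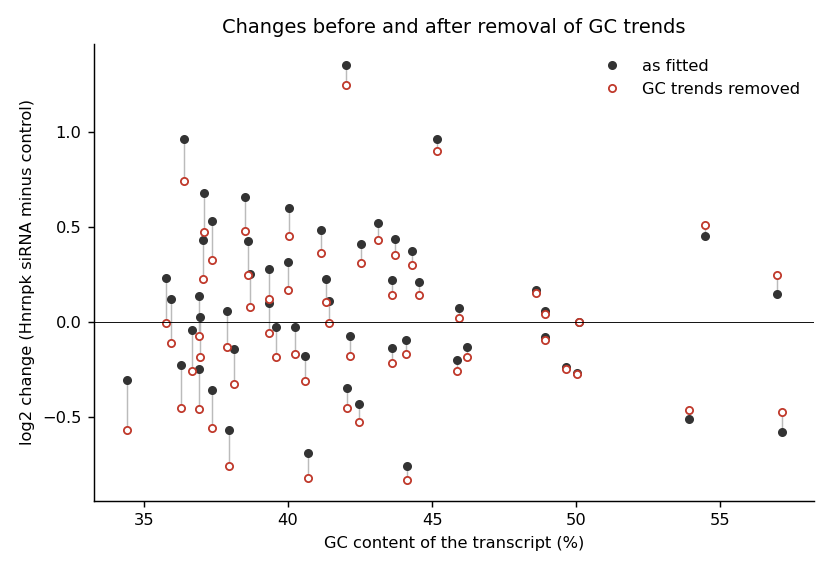
For each of the 57 tested genes, the log2 change (y axis) is drawn against the GC content of its transcript in percent (x axis), as fitted (filled) and with each library's GC trend removed (open), joined by a line. Below the median GC of all genes 53 genes shift down, and the other 4 shift up, so the median goes from 0.074 to -0.059, while Zfp961, Zfp809 and Zfp820 remain the 3 highest.

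Zfp961 showed the largest change. It lies on chromosome 8 from 71951038 to 71993792 (GRCm38, plus strand, ENSMUSG00000052446). Its longest coding frame holds 11 fingers, and the KRAB signature was found among its 4 coding transcripts. Its level was 20.7 and 24.8 RPKM after control siRNA and 58.5 and 59.1 RPKM after Hnrnpk siRNA. Both Hnrnpk siRNA libraries stood far above both controls and close to each other. The group values were 22.8 ± 2.88 and 58.8 ± 0.416 RPKM (SD, n = 2 each), a ratio of 2.58 (log2 change 1.36, SE 0.0837, limma adjusted p = 1.16e-06). It stayed between 1.23 and 1.48 over the alternatives. Larger rises were estimated for 263 of the 12486 genes tested. Zfp882, the nearest upstream gene of the number range at a distance of 34683 bases on the same strand, had 2.65 and 2.97 RPKM against 2.96 and 3.20 RPKM. Its groups overlapped (log2 change 0.11, SE 0.0910, limma adjusted p = 0.291).

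Zfp809 and Zfp820 followed Zfp961, and which of them changed more depended on the setting, such as the value added to RPKM (0.97 against 0.96 with 0.5 added, 0.99 against 1.09 with 0.1 added). The protein of Zfp809 is a KRAB zinc finger repressor that recognises the primer binding site of murine leukaemia-type retroviruses in ES cells. The gene lies on chromosome 9 from 22225714 to 22243354 (GRCm38, plus strand, ENSMUSG00000057982). Its level was 13.7 and 14.6 RPKM in controls against 30.2 and 26.2 RPKM once Hnrnpk was depleted. The groups lay well apart, at 14.2 ± 0.647 and 28.2 ± 2.85 RPKM (SD, n = 2 each), a ratio of 1.99 (log2 change 0.97, SE 0.0809, limma adjusted p = 6.74e-06).

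Zfp810, whose neighbouring locus is 33393 bases from Zfp809 on the opposite strand, changed the other way. This KRAB gene (chromosome 9, 22276748 to 22307648, minus strand, ENSMUSG00000066829) stood at 2.86 and 2.92 RPKM after control siRNA and at 1.53 and 1.49 RPKM after Hnrnpk siRNA. Both Hnrnpk siRNA values were close to each other and below both controls, with group values of 2.89 ± 0.0374 and 1.51 ± 0.0295 RPKM (SD, n = 2 each). This was the largest fall of the set (log2 change -0.76, SE 0.0857, limma adjusted p = 4.32e-05). Zfp599, the one other tested gene within that stretch, lies between them and went from 5.97 and 6.46 RPKM to 8.03 and 7.52 RPKM (log2 change 0.30, limma adjusted p = 0.00733). Zfp872, on the other side of Zfp809, was one of the silent genes, at 0.49997 and 0.356 RPKM against 0.418 and 0.366 RPKM.

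**Figure D3:**
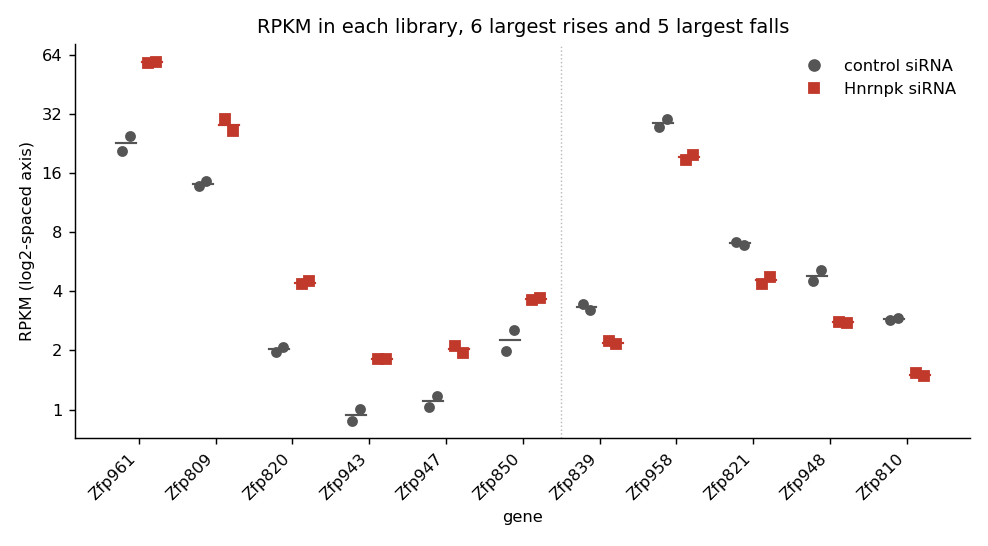
RPKM in every library on a log2-spaced axis for the 6 largest rises (left of the dotted line) and the 5 largest falls (right), with circles for control siRNA, squares for Hnrnpk siRNA and a bar at each group mean. In all 11 genes the 2 groups lie apart, from 20.7 and 24.8 against 58.5 and 59.1 RPKM in Zfp961 to 2.86 and 2.92 against 1.53 and 1.49 RPKM in Zfp810.

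The bases before the start sites of the genes with the largest changes are given to show what the promoters of these genes look like. They come from RefSeq (GRCm38.p6), 5′ to 3′ on the gene's own strand and ending at the base before the annotated start. Capitals mark CCAAT or its reverse complement ATTGG, the box bound by NF-Y, and the E-box CACGTG. The windows are chr8:71950816-71951065 (plus strand) for Zfp961, chr9:22225462-22225711 (plus) for Zfp809 and chr9:22307639-22307888 (minus) for Zfp810.
Zfp961: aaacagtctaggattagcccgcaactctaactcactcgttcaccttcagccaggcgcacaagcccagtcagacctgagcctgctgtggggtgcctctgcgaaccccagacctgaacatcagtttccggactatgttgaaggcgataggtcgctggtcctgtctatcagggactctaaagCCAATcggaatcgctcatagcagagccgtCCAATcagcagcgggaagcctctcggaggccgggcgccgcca
Zfp809: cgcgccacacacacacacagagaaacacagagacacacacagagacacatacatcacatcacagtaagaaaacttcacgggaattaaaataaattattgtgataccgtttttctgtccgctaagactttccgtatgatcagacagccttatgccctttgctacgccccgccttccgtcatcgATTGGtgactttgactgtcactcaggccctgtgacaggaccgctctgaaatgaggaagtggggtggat
Zfp810: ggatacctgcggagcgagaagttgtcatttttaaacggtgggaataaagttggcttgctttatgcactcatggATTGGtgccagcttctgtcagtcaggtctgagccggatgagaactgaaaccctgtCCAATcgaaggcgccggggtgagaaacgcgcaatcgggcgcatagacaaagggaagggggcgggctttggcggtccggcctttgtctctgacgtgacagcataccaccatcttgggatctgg
The Zfp961 window holds 2 CCAAT matches, starting 71 and 42 bases before the start site, and 15 CpG dinucleotides. That of Zfp809 holds 1 match, 68 bases before the start, and that of Zfp810 holds 2, at 177 and 122 bases.

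Promoters of 53 members could be matched in the RefSeq table, by the start nearest to the GENCODE start, with no limit on distance. That start lay 91699 bases away for Zfp935, 63361 for Zfp936, 16267 for Zfp866 and 6178 for Zfp869. Each of these windows holds CCAAT and is counted below. CCAAT on either strand was present in 37 of the 53 (69.8%), against 33.8% of all 32817 promoter windows of the same length. These matches are not independent, since many member windows are alike in sequence. Examples that hold CCAAT are Zfp808 and Zfp935 (89.5% identical over 218 bases) and Zfp932 and Zfp958 (71.3% over 223 bases). By call, the box was present in 16 of 21 members called higher, 8 of 12 called lower and 12 of 18 not called. The CT element CCCTCCCC, a sequence of the MYC promoter that hnRNP K is known to bind, was found on either strand in 2 members (3.8%) against 9.7% of all windows, and in 0 of 21 members called higher and 0 of 12 called lower. The looser C-rich pattern CCCNCCC was found in 43.4% of members and 44.8% of all windows. The windows of members held a median of 8 CpG against 6 over all, with a median GC content of 52.4% in both. These matches are descriptions of the sequence within 250 bases and do not show a binding site.

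Of the 5 clusters with 3 or more members, the one with the most rises was on chromosome 17. In GRCm38, 8 members lie between 21567008 and 22867134, a stretch of 1300127 bases. Of these 5 were called higher and 1 lower, with a median log2 change of 0.39. Over all genes tested 32.2% were called higher and 35.0% lower. The cluster was picked for its rises, and no cluster was tested as a set. All 8 hold the KRAB signature. Zfp820 (minus strand, 21816885 to 21845772, ENSMUSG00000069743) stood at 1.97 and 2.09 RPKM after control siRNA and at 4.35 and 4.50 RPKM after Hnrnpk siRNA. The groups were 2.03 ± 0.0843 and 4.43 ± 0.109 RPKM (SD, n = 2 each), a ratio of 2.18 (log2 change 0.96, SE 0.0840, limma adjusted p = 8.57e-06). Its ratio of RPKM was above that of Zfp809, and the added 0.5 RPKM compresses the change of a gene this low.

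Zfp943 and Zfp947 followed. For Zfp943 the values were 0.879 and 1.004 RPKM against 1.81 and 1.80 RPKM (log2 change 0.68, SE 0.0937, limma adjusted p = 0.000156). Zfp947 had 1.03 and 1.17 RPKM against 2.10 and 1.95 RPKM (log2 change 0.66, SE 0.0952, limma adjusted p = 0.000213). Both genes were near 1 RPKM in the controls and near 2 RPKM after Hnrnpk siRNA, with no overlap. Zfp942 went from 2.99 and 3.15 RPKM to 4.70 and 4.61 RPKM (log2 change 0.53, SE 0.0812; 0.33 with GC trends removed). Zfp944 went from 3.71 and 3.59 RPKM to 4.41 and 4.50 RPKM (log2 change 0.25, SE 0.0798, limma adjusted p = 0.0174), and its call was lost when GC trends were removed (0.082, limma adjusted p = 0.376; 0.00334 to 0.376 over the alternatives) or either Hnrnpk siRNA library was left out.

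The ends of the cluster behaved otherwise. Zfp948, the first of the 8 (plus strand, 21567008 to 21588699, ENSMUSG00000067931), stood at 4.51 and 5.11 RPKM against 2.80 and 2.77 RPKM. The fall was from 4.81 ± 0.425 to 2.78 ± 0.0230 RPKM (SD over 2 libraries; log2 change -0.69, SE 0.0884, limma adjusted p = 9.46e-05). At the other end Zfp946 had 2.02 and 2.17 RPKM against 2.21 and 2.07 RPKM, with overlapping groups (log2 change 0.027). Zfp945 had 1.68 and 1.80 RPKM against 1.90 and 1.97 RPKM (log2 change 0.12), and neither was called.

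Genes of the stretch outside the number range are given for comparison and were chosen for their position after the values were seen. Of the 7 tested, 3 were called higher and 0 lower by limma, beside 32.2% and 35.0% of all genes tested. 2210404O09Rik went from 2.05 and 2.72 RPKM to 5.83 and 6.01 RPKM (log2 change 1.16), Zfp229 from 2.81 and 3.16 to 6.74 and 5.98 RPKM (0.98) and Zfp758 from 0.893 and 1.04 to 1.87 and 1.70 RPKM (0.64). Each of the tested genes from Zfp229 to Zfp758 was called higher, but these ends were set by the calls themselves. The nearest tested genes outside them, Zfp760 and Zfp946, were not called. With GC trends removed, 4 members of the cluster were called higher and 1 lower (median 0.21), and of the other 7 genes 3 were called higher and 2 lower.

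**Figure D4:**
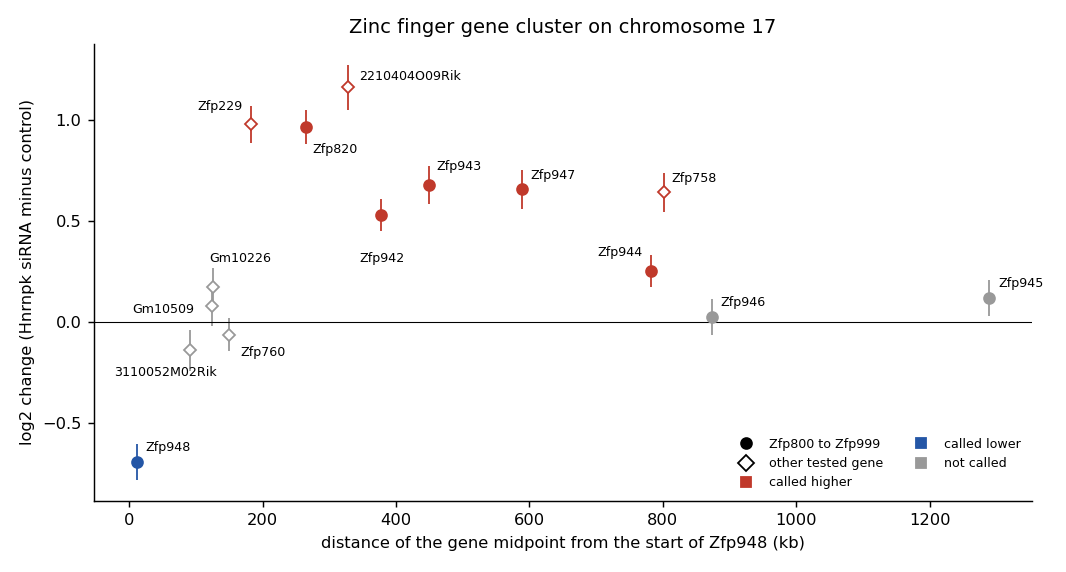
The log2 change of each tested gene in the chromosome 17 cluster (y axis, bars are limma standard errors, n = 2 libraries a group) is drawn against the distance of its midpoint from the start of Zfp948 in kilobases (x axis), with circles for Zfp800 to Zfp999 and open diamonds for other genes. The genes from Zfp229 to Zfp758, ends set by the calls themselves, rise by 0.25 in Zfp944 to 1.16 in 2210404O09Rik. Zfp948, near the start of the x axis, lies at -0.69.

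Some promoters of this cluster share sequence, as do those of members on other chromosomes, such as Zfp932 and Zfp958. Zfp942 and Zfp943 start 94 bases apart on opposite strands in RefSeq, so the stretch between them (chr17:21962465-21962558, written in the direction of Zfp943) lies before both genes, and both were called higher. The bases before Zfp820 (chr17:21845760-21846009, minus strand), which rose, and Zfp948 (chr17:21566728-21566977, plus strand), which fell, are printed for contrast, with capitals as before. The windows of Zfp820 and Zfp948 are themselves alike in part, at 80.0% identity over 60 bases.
Zfp942 and Zfp943: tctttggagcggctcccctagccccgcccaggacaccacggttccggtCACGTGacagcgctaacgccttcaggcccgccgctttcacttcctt
Zfp820: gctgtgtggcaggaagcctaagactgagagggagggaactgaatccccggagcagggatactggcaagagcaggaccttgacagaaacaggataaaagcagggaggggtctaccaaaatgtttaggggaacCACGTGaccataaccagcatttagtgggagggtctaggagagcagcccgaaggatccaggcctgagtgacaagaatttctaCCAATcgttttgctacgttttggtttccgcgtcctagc
Zfp948: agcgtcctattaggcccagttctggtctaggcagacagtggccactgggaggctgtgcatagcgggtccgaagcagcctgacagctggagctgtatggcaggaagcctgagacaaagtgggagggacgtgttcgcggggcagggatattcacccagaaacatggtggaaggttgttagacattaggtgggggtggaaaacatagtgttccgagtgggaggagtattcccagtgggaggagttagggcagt
The E-box CACGTG lies 46 bases before the start of Zfp943 and 119 bases before that of Zfp820, and the window of Zfp948 holds neither it nor CCAAT. Over the 53 matched members the E-box was found in 9 (17%), against 6.0% of all windows. It was singled out from the motifs scanned with the values known, and no link of a motif to the calls was tested. It was present in 6 of 21 members called higher, 0 of 12 called lower and 3 of 18 not called. Of the 9, 7 were on chromosome 17 (Zfp820, Zfp871, Zfp942, Zfp943, Zfp944, Zfp946 and Zfp947) and the others were Zfp819 and Zfp933. These are not independent, since Zfp942 and Zfp943 share one match and the windows of Zfp942 and Zfp944 are 99.6% identical over 225 bases. Zfp946 holds the E-box and was not called.

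Other clusters were mixed. On chromosome 8 between 69209038 and 69791178, 6 members lie together. Of these 3 were called higher and 0 lower by limma, beside 32.2% and 35.0% of all genes tested. Zfp869 went from 19.2 and 19.7 RPKM to 25.9 and 27.1 RPKM (log2 change 0.44, SE 0.0645, limma adjusted p = 0.000243). Zfp963 went from 1.62 and 1.67 RPKM to 2.49 and 2.66 RPKM (log2 change 0.52, SE 0.0878), although 40.9% of its transcript is shared with the overlapping gene Gm20422, which was not called. Zfp868 had 9.43 and 11.2 RPKM against 11.7 and 12.5 RPKM, and its log2 change of 0.22 was called narrowly and lost under 6 alternatives (limma adjusted p = 0.0481; 0.0021 to 0.272 over the alternatives). Zfp930, Zfp866 and Zfp964 of the same stretch had log2 changes of -0.14, -0.13 and -0.13 and were not called. With GC trends removed Zfp930 (-0.33) and Zfp866 (-0.18) were called lower, and Zfp930 also without control replicate 1 (-0.22).

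In the second chromosome 17 stretch, from 32765496 to 33005457, Zfp871, Zfp870 and Zfp952 were called higher and Zfp811 lower. Zfp952 went from 1.91 and 2.05 RPKM to 2.83 and 2.75 RPKM (log2 change 0.41). Zfp811, separated from Zfp871 by 7388 bases on the same strand, went from 1.66 and 1.36 RPKM to 0.844 and 1.15 RPKM (log2 change -0.43, SE 0.123, limma adjusted p = 0.0112). Its replicates differed more than those of most members, and without Hnrnpk siRNA replicate 1 its log2 change was -0.28 and not called, nor was it with no filter (0.000724 to 0.142 over the alternatives). The call of Zfp870 (log2 change 0.21) was lost under 5 alternatives, among them the removal of GC trends and leaving out control replicate 2 or either Hnrnpk siRNA library (0.0147 to 0.236 over the alternatives). Zfp871 had 4.45 and 5.02 RPKM against 6.37 and 5.65 RPKM (log2 change 0.32, limma adjusted p = 0.0122), and the call was lost with no filter, with GC trends removed and without Hnrnpk siRNA replicate 1 (0.00157 to 0.145 over the alternatives).

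Further members rose by less than 1 on the log2 scale elsewhere in the genome. Zfp850, with 16 fingers, went from 1.99 and 2.53 RPKM to 3.61 and 3.71 RPKM (log2 change 0.60, SE 0.106, limma adjusted p = 0.000739). Zfp951 went from 2.49 and 2.57 RPKM to 3.58 and 3.91 RPKM (log2 change 0.49, SE 0.0861). In both genes the Hnrnpk siRNA libraries lay above the controls. Zfp936 had 14.8 and 19.1 RPKM against 22.5 and 23.03 RPKM (log2 change 0.43, SE 0.103); it had the largest spread within a group, an SD of 0.249 on the log2 scale between its control libraries. Without control replicate 1 its log2 change was 0.249 and with GC trends removed 0.251, called in both cases. Zfp939, the transcribed pseudogene, went from 1.01 and 0.996 RPKM to 1.57 and 1.34 RPKM (log2 change 0.38), a call lost without Hnrnpk siRNA replicate 1 (0.29). Zfp935 went from 4.26 and 4.18 RPKM to 5.91 and 5.83 RPKM (log2 change 0.43, or 0.23 with GC trends removed), but its whole transcript is shared with Gm49359 and its locus overlaps that of Zfp934 on chromosome 13, which was not called. Zfp950 and Zfp873 were called higher at the edge of the threshold (limma adjusted p of 0.0491 and 0.0490), each losing its call when either Hnrnpk siRNA library was left out and under further alternatives (up to 0.968 and 0.351), and Zfp950 changed sign to -0.0042 when GC trends were removed.

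Zfp958 was the most abundant KRAB gene among the falls. With 13 fingers and a locus on chromosome 8, it went from 27.6 and 30.1 RPKM to 18.6 and 19.9 RPKM, or 28.8 ± 1.77 against 19.3 ± 0.909 RPKM (SD over 2 libraries; log2 change -0.57, SE 0.0713, limma adjusted p = 8.31e-05). Zfp867 had 6.30 and 6.29 RPKM against 4.51 and 5.18 RPKM (log2 change -0.35), a call lost without Hnrnpk siRNA replicate 1 (-0.26). Zfp932 had 5.97 and 6.55 RPKM against 4.50 and 5.08 RPKM (log2 change -0.36, SE 0.0885, limma adjusted p = 0.00553). It was -0.28 and not called without Hnrnpk siRNA replicate 1, and -0.56 with GC trends removed. ZFP932 and its close copy Gm15446 are KRAB proteins known to bind endogenous retroviruses of the ERVK group in ES cells. The 2 genes share 1953 bases of the 2509-base Zfp932 transcript, so their reads cannot be fully told apart, and Gm15446 had 3.21 and 3.55 RPKM against 2.45 and 2.59 RPKM (log2 change -0.36). Zfp808, Zfp931 and Zfp953 had log2 changes of -0.23, -0.30 and -0.25 and were called lower. These calls were lost under 3, 3 and 5 of the alternatives, among them leaving out either Hnrnpk siRNA library (limma adjusted p up to 0.135, 0.141 and 0.254 over the alternatives). Without control replicate 2 the log2 change of Zfp953 was -0.17 and that of Zfp808 -0.16, neither called. With GC trends removed the changes of Zfp808, Zfp931 and Zfp953 were larger, at -0.45, -0.57 and -0.46. Of these, Zfp808 shares 62.0% and Zfp931 88.6% of the transcript with other genes.

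The members without the KRAB signature moved both ways. With the untranslated pseudogene Zfp939 counted in, 9 were tested, of which 3 were called higher and 4 lower (median 0.15). Zfp821, with 2 fingers, went from 7.11 and 6.93 RPKM to 4.36 and 4.73 RPKM (log2 change -0.58, SE 0.0793, limma adjusted p = 0.000152). Zfp839 went from 3.46 and 3.21 RPKM to 2.23 and 2.16 RPKM (log2 change -0.51, SE 0.0864, limma adjusted p = 0.000579). In both, the Hnrnpk siRNA libraries lay below the controls. Zfp828 had 60.2 and 66.6 RPKM against 55.4 and 51.9 RPKM (log2 change -0.24, limma adjusted p = 0.0144), a call lost without control replicate 2 (-0.16) or Hnrnpk siRNA replicate 2 (-0.19). Zfp827, whose human counterpart recruits the NuRD complex to telomeres, had 3.38 and 3.72 RPKM against 2.85 and 2.87 RPKM (log2 change -0.27, limma adjusted p = 0.0194), and its call was lost under 4 alternatives, among them leaving out either Hnrnpk siRNA library (0.00413 to 0.121 over the alternatives).

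Zfp956, with 6 fingers, went from 4.03 and 4.46 RPKM to 5.87 and 6.12 RPKM (log2 change 0.45, SE 0.0834), and Zfp800 from 1.93 and 1.73 RPKM to 2.41 and 2.24 RPKM (log2 change 0.28, limma adjusted p = 0.0218). The Zfp800 call was lost under 4 alternatives, among them the removal of GC trends (0.00251 to 0.258 over the alternatives). Zfp830, a protein with 1 finger that acts in RNA processing and genome maintenance, had 9.97 and 10.9 RPKM against 11.6 and 12.005 RPKM and was not called (log2 change 0.17, limma adjusted p = 0.0674; 0.0201 to 0.283 over the alternatives). Zfp865, with 20 fingers, had 13.3 and 13.5 RPKM against 15.008 and 14.8 RPKM and was not called either (log2 change 0.15). Against these, the 48 tested members with the signature were called higher in 19 and lower in 9 cases (median 0.066), or 13 and 15 with GC trends removed. Their median was 0.098 without Hnrnpk siRNA replicate 1 and 0.062 without replicate 2, with fewer calls in both cases. Of the members with and without the signature 58.3% and 77.8% were called, beside 67.2% of all genes tested. No difference between the 2 kinds was tested.

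In 22 members no change was called, with log2 changes from -0.20 to 0.17. Zfp819, a KRAB gene of pluripotent cells, had 5.89 and 7.14 RPKM against 6.31 and 7.28 RPKM; the groups overlapped and the replicates differed by more than the groups did. Zfp954 had 7.12 and 6.798 RPKM against 6.82 and 7.11 RPKM, with the smallest change of all (0.0014). Zfp930, among the more abundant members, had 20.9 and 23.3 RPKM against 18.9 and 21.1 RPKM. Zfp825 had 12.3 and 12.2 RPKM against 11.8 and 12.2 RPKM, but shares 75.8% of its transcript with other genes. Zfp940 had 3.37 and 3.41 RPKM against 2.86 and 2.91 RPKM and missed the threshold narrowly (log2 change -0.20, limma adjusted p = 0.0521; 0.017 to 0.274 over the alternatives). Zfp960 shares 99.6% of its transcript with Zfp97 and had a log2 change of 0.057.

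Leaving out the 7 members that share over 50% of their transcript with other genes (Zfp935, Zfp960, Zfp931, Zfp932, Zfp825, Zfp808 and Zfp934) left 50 tested, of which 21 were called higher and 10 lower, with a median log2 change of 0.12. Over all genes tested 67.2% were called, 32.2% higher and 35.0% lower. Counts of this smaller set with GC trends removed are not given. For all 57 tested members that step gave 16 higher and 19 lower. No source used here says how reads matching several places were counted, so the values of those 7 are uncertain.

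Other zinc finger genes are given beside them. Of 275 other numbered Zfp genes tested, 87 were called higher and 63 lower, or 54.5%, with a median log2 change of 0.032. Over all genes tested 67.2% were called. A list of KRAB genes outside the number range, partly contained in those 275, was chosen with earlier results of these data known. It had 22 entries tested, of which 14 were called higher and 3 lower, or 77.3%, with a median of 0.33. With GC trends removed that list had 12 called higher and 3 lower (median 0.25). Without Hnrnpk siRNA replicates 1 and 2 in turn its median was 0.319 and 0.316, with fewer calls in both cases. In it Zfp456 went from 0.920 and 0.778 RPKM to 1.65 and 1.72 RPKM (log2 change 0.70), Zfp429 from 3.32 and 3.23 to 4.85 and 5.45 RPKM (0.58) and Zfp459 from 5.19 and 5.36 to 7.96 and 8.24 RPKM (0.57). Zfp84 went from 4.199 and 4.74 RPKM to 6.87 and 6.72 RPKM (0.56). No difference between the sets was tested.

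**Figure D5:**
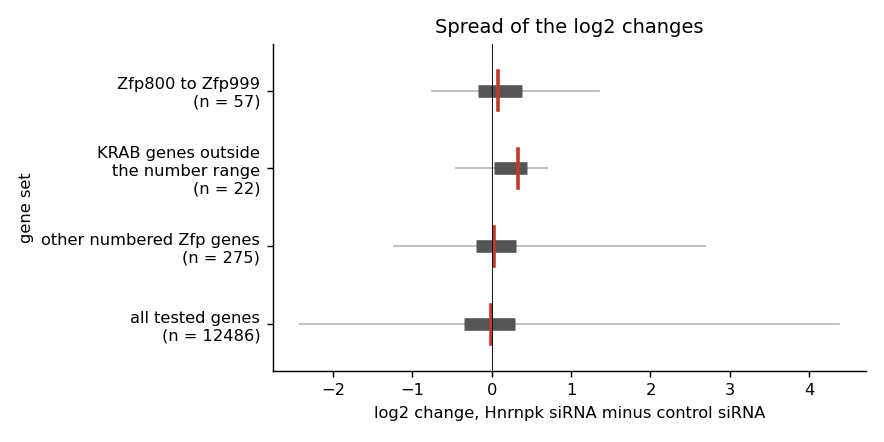
For each set of genes (y axis, with the number tested) the thin line spans the lowest to the highest log2 change, the thick bar the middle range between the quartiles and the red tick the median (x axis, Hnrnpk siRNA minus control siRNA). The medians are 0.074 for Zfp800 to Zfp999, 0.33 for the KRAB list, 0.032 for other numbered Zfp genes and -0.015 for all tested genes. The line runs from -0.76 to 1.36 for Zfp800 to Zfp999. The KRAB list was chosen with earlier results of these data known.

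The proteins that KRAB zinc fingers work through were measured as transcripts. Trim28 had 969 and 1053 RPKM against 1038 and 1089 RPKM, and Setdb1 35.2 and 36.1 RPKM against 33.3 and 32.4 RPKM. Neither was called (limma adjusted p of 0.445 and 0.114). Of the 22 entries of the partner list, 3 were called higher and 7 lower, or 45.5% beside 67.2% of all genes tested. Their median log2 change was -0.099. With GC trends removed 2 of 21 were called higher and 11 lower, and without Hnrnpk siRNA replicate 1 the median log2 change was -0.14. The falls above 0.5 in size were those of Dnmt1, which copies DNA methylation after replication, from 108 and 106 RPKM to 70.1 and 66.4 RPKM (log2 change -0.65), and of its cofactor Uhrf1, from 124 and 126 RPKM to 83.3 and 79.8 RPKM (log2 change -0.61). With 2 libraries a group the smallest p of an exact permutation test on 1 gene is 0.333, and every call depends on the spread estimated jointly over genes.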

How the data were processed

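RNA was sequenced from TT2 ES cells in 4 libraries, 2 after control siRNA and 2 after Hnrnpk siRNA. Values are RPKM per Ensembl gene as deposited by the authors, 1 column a library. Per the submitters' processing notes, BWA, SAMtools and the build mm9 were used; what each did, the counting tool and the gene models are unknown from those notes. The labels name 2 RNA preparations, ribosomal RNA depletion and poly(A) selection, without settling which applied. Steps between low RPKM values of single-exon genes fell within 0.02 of whole numbers in 28.0% to 30.7% of values, so whole reads could not be recovered and count tests were not run.

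Every gene averaging 0.5 RPKM or more was compared as log2(RPKM + 0.5) with limma 3.58.1 in R 4.3.3 (mean-variance trend, two-sided, 7.47 prior degrees of freedom), with Benjamini-Hochberg adjustment across the 12486 genes. A change on this scale understates that of low genes. The procedure was tested on simulated data in which far fewer genes were changed than were called here. That test does not cover changes as widespread as these. Called means an adjusted p under 0.05.

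Of the 60 members, 55 were found in GENCODE M21 (GRCm38) by identifier and 5 (Zfp850, Zfp870, Zfp950, Zfp953 and Zfp960) by symbol; positions, GC content and coding frames are from there, not from mm9. Shared sequence was found with BLAST 2.17.0 (95% identity over at least 100 bases, same strand). KRAB signatures were sought in every translated coding transcript of a gene. Fingers (a cysteine pair 2 to 4 residues apart, 12 residues, a histidine pair 3 to 5 apart) were counted in the longest translation. Clusters hold at least 3 members with gaps under 1000000 bases.

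Members and lists were chosen with earlier results of these data known. By the rule for named genes, members with fixed roles, the 10 largest rises and falls, those at the limits of level and spread and any other tested member could be named, with Hnrnpk, Trim28, Setdb1 and called list genes over 0.5 in size. Cluster neighbours, Gm15446 and the motifs were chosen after values were seen. List names without a matching row were left out, and 3 names match 2 entries each.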

Additional observations from a re-analysis of the deposited data

How the results depend on the processing

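The alternatives were adding 0.1 or 1 RPKM, dropping the filter or raising it to 1 RPKM, median ratio scaling, quantile normalization, removal of GC trends, no mean-variance trend, a replicate block and leaving out each library. Among the values for single members 645 kept direction and side of the threshold, 53 lost the call, 17 gained one and 23 changed sign. The median log2 change of the members became 0.153 under quantile normalization and -0.059 with GC trends removed, and lay between 0.026 and 0.156 without 1 library. Calls without 1 library numbered 14 to 23 higher and 6 to 15 lower, and over all genes 6809 to 8535. Of the sign changes, 1 was in a called gene. With GC trends removed the log2 changes were -0.0042 for Zfp950, which had been called, -0.0588 for Zfp959, -0.111 for Zfp945, -0.0007 for Zfp954, -0.0711 for Zfp938, -0.133 for Zfp960, -0.183 for Zfp946 and -0.0034 for Zfp882. Quantile normalization gave 0.0031 for Zfp846, 0.0798 for Zfp933 and 0.0190 for Zfp934. Without 1 library, the lowest and highest values were -0.0700 and 0.186 for Zfp819, -0.0395 and 0.240 for Zfp959, -0.0157 and 0.0697 for Zfp946, -0.179 and 0.0241 for Zfp879, -0.126 and 0.0702 for Zfp933, -0.0297 and 0.0324 for Zfp954, -0.130 and 0.0470 for Zfp934, and -0.308 and 0.0381 for Zfp964. The cause of these changes was not tested. The deviations of libraries with the same number had a correlation of 0.027 across genes. With 1 deviation per group and gene, this cannot show whether the numbers mark a shared culture or batch. The fit with the replicate block called 21 members higher and 13 lower, against 22 and 13 without it, and 8622 genes in all.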
